A study of Rattus norvegicus with 4 samples.

Results

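The Dlk1-Dio3 region is an imprinted stretch of the genome that holds one of the largest groups of microRNA (miRNA) genes in mammals, and 35 of its rat miRNAs were examined in heart tissue after myocardial infarction (MI). They were chosen by name and location, without a limit on any measured value, but with earlier results of these data known. Of the 35 listed, 34 had a rat probe on at least 1 array and are the members described here, out of 689 rat miRNA names on the arrays. The name rno-miR-300 was not analysed here, and rno-miR-665 was analysed at day 14 only, so that 33 members were read at day 2 and 34 at day 14.

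The study profiled hearts of male Wistar rats on miRCURY LNA arrays, whose probes contain locked nucleic acids that bind short RNAs tightly. There were 4 groups, MI and sham at day 2 and MI and sham at day 14. MI rats had the chest and pericardium opened and the left anterior descending coronary artery (LAD) tied off, and sham rats had the same operation without the ligature. The RNA of 3 rats was pooled for each group and read on 1 array, so no difference below has a replicate and no test was run. Each error is a standard error (SE) computed from the 4 spots of a probe on each array and does not cover rats or arrays. The day 2 arrays received 1 µg of RNA and the day 14 arrays, of a later design, 500 ng, so MI was set against sham within a day only. The scan of the day 2 sham array names a mouse image in its header although its label says rat, and every day 2 difference rests on that array.

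In this region the protein-coding genes, Dlk1, Rtl1 and Dio3, are expressed from the paternal chromosome, while the long non-coding RNA Meg3 and the miRNAs are expressed from the maternal one. The miRNAs are cut from long transcripts and are abundant in embryo, placenta and brain, and lower in most adult tissues. Each mature miRNA finds its target messenger RNAs mainly through its seed, bases 2 to 8 from the 5′ end. Members with different seeds therefore have largely different targets even though they come from shared transcripts.

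All 34 members matched a RefSeq mature sequence of the rat build GRCr8, all on the plus strand of chromosome 6. They lie in 2 blocks. The first holds 9 members from miR-493 to miR-370, over chr6:134314784-134354559. The second holds 25 members from miR-379 to miR-410, over chr6:134543460-134579828, and begins 188.9 kb after the end of the first. Within the first block, miR-431, miR-433, miR-127 and miR-434 lie inside the annotated span of Rtl1, a retrotransposon-derived gene read from the opposite strand and, as background, repressed in mouse by miRNAs antisense to it. Where an array name gives no arm of the hairpin, the sequence is that of the arm that carried the plain name in miRBase.

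The differences given further on are those of the 13 members detected on at least 1 array, and their mature sequences are printed in order along the chromosome, with the seed in capitals.
rno-miR-434-3p: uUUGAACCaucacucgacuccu
rno-miR-341: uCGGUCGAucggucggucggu
rno-miR-370-3p: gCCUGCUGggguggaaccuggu
rno-miR-299a-5p: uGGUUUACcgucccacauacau
rno-miR-329-3p: aACACACCcagcuaaccuuuuu
rno-miR-494-3p: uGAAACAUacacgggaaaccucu
rno-miR-543-5p: aAGUUGCCcgcguguuuuucg
rno-miR-376b-3p: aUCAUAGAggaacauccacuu
rno-miR-381-3p: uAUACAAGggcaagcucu
rno-miR-487b-3p: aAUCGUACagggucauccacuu
rno-miR-382-5p: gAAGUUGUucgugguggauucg
rno-miR-541-5p: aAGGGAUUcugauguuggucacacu
rno-miR-409a-5p: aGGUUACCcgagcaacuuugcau

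No 2 members shared a seed: the 34 members had 34 distinct seeds, and the 13 detected members 13. Seeds were also set against the other rat mature miRNAs of RefSeq. Of the members not detected, miR-376c-3p shared its seed with miR-741-5p, miR-410-3p with miR-344b-1-3p, and miR-376b-5p with miR-376c-5p. Of the detected members, miR-329-3p shared its seed with miR-362-3p, miR-381-3p with miR-539-3p, and miR-299a-5p with miR-299b-5p. Among these detected members, miR-381-3p and miR-299a-5p also had a close relative over their whole length, which a probe may not tell apart. The first differed from miR-300-3p by 1 base over its 18 bases, and the second differed from miR-299b-5p by 1. The share of G and C in the mature sequence had a median of 45.5% in the 13 detected members (38.1% to 68.2%) and of 47.6% in the 21 not detected under a rat name (23.8% to 59.1%). The detected members made up 3 of the 9 in the first block and 10 of the 25 in the second.

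The share of members detected was below that of all rat probes on both days. A spot was counted as detected when its foreground intensity was above its local background by over 2 background standard deviations, and a probe needed 50% of its spots or more. At day 2, 9 of 33 members (27.3%) were detected on at least 1 array, against 57.8% of the 348 rat probes. By array, 8 were detected in MI and 7 in sham, against 57.2% and 47.7% of rat probes. At day 14, 5 of 34 members (14.7%) were detected on at least 1 array, against 34% of the 677 rat probes. By array, 3 were detected in MI and 4 in sham, against 31.6% and 25.6% of rat probes.

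**Figure D1:**
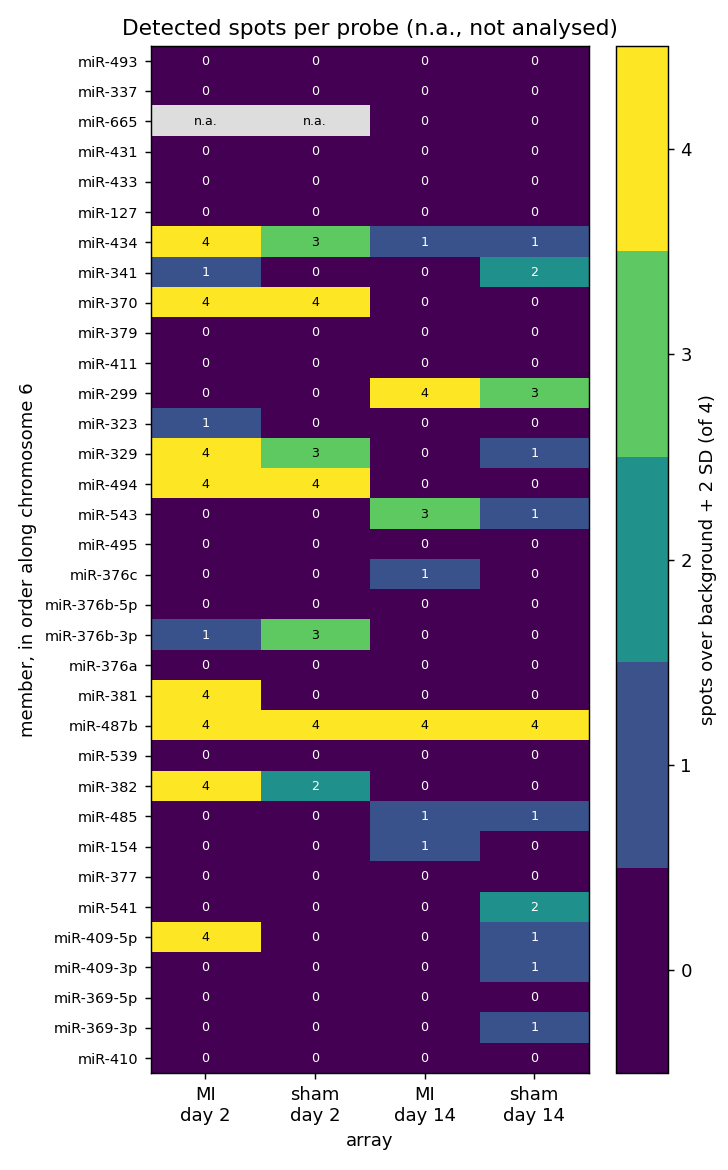
Number of the 4 spots of each member that were above background plus 2 standard deviations, on the MI and sham arrays of day 2 and day 14, with members in order along chromosome 6 and n.a. where a name was not analysed. miR-487b has 4 detected spots on every array, while 21 members have at most 1 detected spot on each array on which their rat name was analysed.

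Which members were detected differed between the days. miR-487b was detected at both days, 8 members at day 2 only, and 4 at day 14 only. Of the 24 members read by a probe of the same ID on both days, 5 were detected at day 2, and 1 of these 5 (20%) was also detected at day 14. Over all 273 rat probes of the same ID, 113 of the 153 detected at day 2 (73.9%) were also detected at day 14. Array design, RNA amount and time after surgery all changed between the days and cannot be told apart.

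The 21 members not detected under a rat name on any array were miR-127, miR-154, miR-323, miR-337, miR-369-3p, miR-369-5p, miR-376a, miR-376b-5p, miR-376c, miR-377, miR-379, miR-409-3p, miR-410, miR-411, miR-431, miR-433, miR-485, miR-493, miR-495, miR-539 and miR-665. Of these, miR-665 was read under its rat name at day 14 only, and the same probe, named for mouse at day 2, was detected on both day 2 arrays. The list includes miR-127, which in mouse is antisense to Rtl1, and miR-379 and miR-410, which open and close the second block. Probes of members not detected at a day had a median signal near that of the glass around them, and below it on the day 2 sham array. At day 2 the ratio of foreground to background over 24 such members had a median of 0.92 in MI (0.72 to 1.99) and of 0.63 in sham (0.49 to 1.36). At day 14 the median over 29 members was 1.04 in MI (0.63 to 1.80) and 1.03 in sham (0.67 to 1.99). Single bright spots occurred among them. miR-409-3p had 1 spot at 7906 on the day 14 sham array, with its other 3 spots between 76 and 108, and was not counted as detected.

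The comparison at day 2 addressed early change after infarction. None of the 9 members detected at day 2 was called as differing by 2-fold or more between MI and sham. A bound gives a least size only, so a member with a bound may differ by more. Of the 172 rat probes with a fold or a bound, 5.81% were called (4.65% higher and 1.16% lower in MI). The direction of those rat calls depended on the scaling. They were 8 higher and 2 lower as reported, 4 and 23 without normalization, 5 and 10 with a spike-in shift, 48 and 8 with the background subtracted, and 25 and 19 in the authors' deposited table. The median difference of the 9 was -0.15 on the log2 scale, MI minus sham, against 0.09 over the 172 rat probes, and 4 lay above 0 and 5 below. A bound takes its sign from the array that detected the probe, so its side of 0 was fixed by the rule. Of the 6 members detected on both arrays, 2 lay above 0 and 4 below, with a median of -0.17. The median of the 147 rat probes detected on both, and not saturated, was 0.09. Of the members with a value, 0 lay above 0 and 7 below without normalization, with a common median and with the spike-in shift. The counts were the same with the median of the spots, and 1 and 6 in the authors' deposited table. In each of these alternatives miR-381 and miR-409-5p, above 0 as bounds in the main processing, had no value and were not counted. The counts were 5 and 4 with cyclic loess, 5 and 3 with the background subtracted, and 2 and 2 where all spots had to pass. The median over rat probes with a value moved too. It was -0.45 without normalization, -0.02 with a common median, -0.16 with the spike-in shift and -0.24 with the median of the spots. In the authors' deposited table it was -0.08, with cyclic loess 0.20 and with the background subtracted 0.32. For the 6 members detected on both arrays the normalized values of the MI spots overlapped those of the sham spots, whereas 20.4% of the 147 rat probes detected on both arrays, and not saturated, had spots that did not overlap. The background on the sham array was higher, with a median of 131 intensity units over all MI spots and 322 over all sham spots, so a spot needed more signal there to be counted. In pooled tissue fewer cells of a type and less RNA per cell cannot be told apart. The fourth of the 4 spot sets was dim over a high background on that array, and values without it are given where they differ. Without it 4 of the 6 members had spots that did not overlap (miR-370 higher in MI, and miR-487b, miR-329 and miR-434 lower), as did 39.5% of the 147 rat probes then detected on both. The overlap of miR-487b, miR-329 and miR-434 over all spot sets came from the sham spot of the fourth set, and so did that of miR-376b-3p.

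miR-494 and miR-487b stood well above background on both day 2 arrays. In mice, blocking miR-494, miR-487b, miR-329 or miR-495 has been studied as a way to improve blood vessel growth in ischaemic limbs, and miR-494 has been studied in injury of the heart after restored blood flow. miR-494 (chr6:134550163-134550185) gave spots of 10249, 11639, 8777 and 8115 intensity units in MI, against 20155, 14402, 11440 and 13138 in sham, before normalization. Its median foreground was 68.7 times its background in MI and 46.4 times in sham. After normalization these spots overlapped, and MI was lower by a log2 difference of -0.28 (SE 0.20). Without the fourth spot set the difference was -0.03.

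miR-487b (chr6:134562939-134562960), known in rat aorta to target the insulin receptor substrate Irs1, gave MI spots of 4318, 5171, 6169 and 5082 at day 2, against sham spots of 9255, 11235, 9746 and 2791. One sham spot, in the fourth set, was lower than every MI spot, and the other 3 were higher than all of them. The normalized difference was -0.18 (SE 0.50), and -0.46 without the fourth set.

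**Figure D2:**
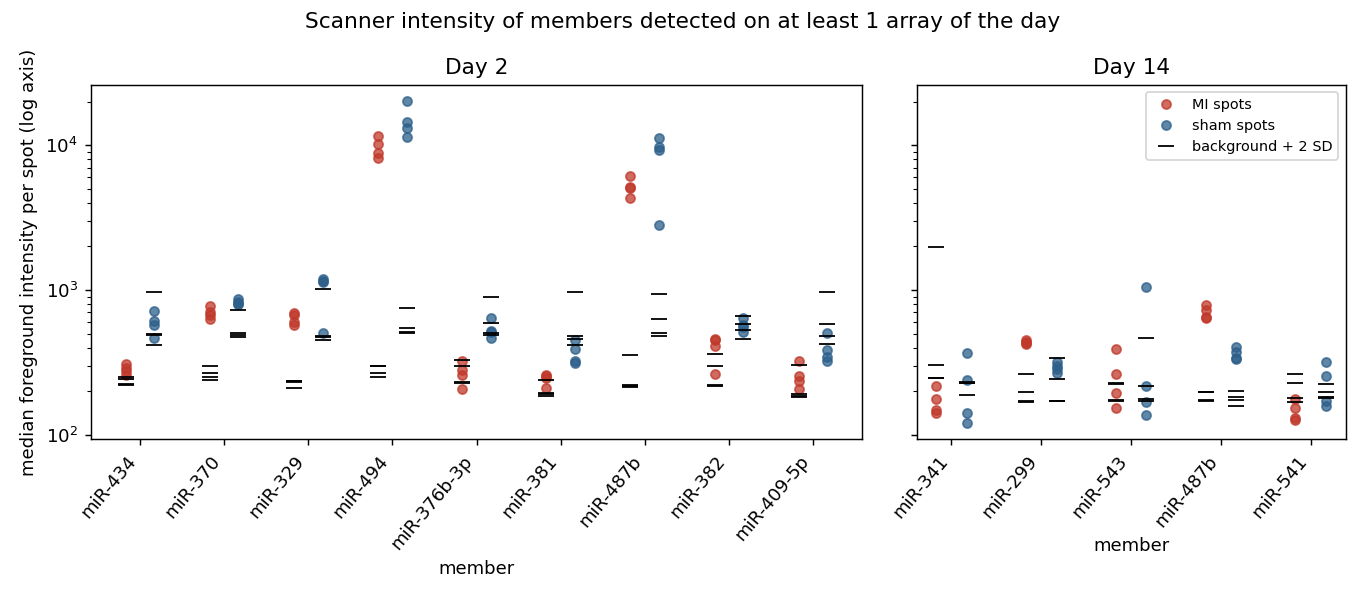
Median foreground intensity of each of the 4 spots (log axis) of the members detected at day 2 (left) and day 14 (right), with MI spots in red left of sham spots in blue and a short black line at the background plus 2 standard deviations of each spot. At day 2 miR-494 and miR-487b have every spot above its limit, the lowest at 2791 units,, and at day 14 miR-299 and miR-487b have all MI spots above all sham spots.

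The other 4 members detected on both day 2 arrays had a median foreground of 1.68 to 5.96 times their background. miR-370 (chr6:134354538-134354559), which in human liver cells lowers the fatty acid oxidation gene CPT1A, gave 707, 778, 675 and 629 in MI, against 869, 799, 798 and 823 in sham. Every raw sham spot was higher than every MI spot, over a sham background of 276 to 490 and an MI background of 123 to 149, and the normalized difference was 0.05 (SE 0.10), or 0.22 without the fourth spot set. miR-329 (chr6:134547973-134547994) gave 688, 669, 601 and 577 in MI, against 1128, 1183, 1156 and 503 in sham. Its difference was 0.13 (SE 0.66), and -0.34 without the fourth spot set, in which its sham spot was below the detection limit.

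miR-382 (chr6:134569956-134569977) gave 457, 410, 454 and 264 in MI, against 513, 575, 642 and 552 in sham, where 2 of the 4 spots were above the limit. Its difference was -0.15 (SE 0.18), and 0.10 without the fourth set. miR-434 (chr6:134330451-134330472), the one detected member inside the span of Rtl1, gave 310, 277, 260 and 288 in MI, against 576, 720, 607 and 465 in sham. Its difference was -0.21 (SE 0.49), and -0.63 without the fourth set.

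Another 3 members were detected on 1 of the day 2 arrays, so their difference is a bound. miR-381 (chr6:134562422-134562439) gave 246, 257, 254 and 212 in MI, with all 4 spots above the limit, against 323, 394, 312 and 453 in sham, with none above it. The sham spots were the brighter ones but lay over backgrounds of 255 to 679, against 99 to 134 in MI. Normalized means were 8.64 in MI and 8.41 in sham, and the bound was 0.07 higher in MI. The rat probe for miR-300-3p, its close relative, had no spot above the limit on either day 2 array, with 101 to 130 in MI and 177.5 to 305 in sham. Binding of miR-300-3p by the miR-381 probe was not tested. miR-409-5p (chr6:134579198-134579220) gave 321, 253, 206 and 237 in MI, against 502, 342, 322 and 388 in sham, with 4 and 0 spots above the limit. Its bound was 0.09 higher in MI. Without the fourth spot set neither of these members had a fold.

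miR-376b-3p (chr6:134558913-134558933), whose human relative acts on genes of autophagy, was the reverse case. It gave 322, 259, 279 and 207 in MI, where 1 spot was above the limit, against 639, 525, 514 and 464 in sham, where 3 were. Its bound was -0.22, lower in MI, and -0.47 without the fourth set. Detection on 1 array shows no difference in level by itself.

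The comparison at day 14 addressed later change. None of the members detected then was called as differing by 2-fold or more. A member with a bound may differ by more, and miR-543 had no fold or bound. Of the 223 rat probes with a fold or bound, 14.8% were called (11.2% higher and 3.59% lower in MI). Those rat calls were 25 higher and 8 lower as reported, 40 and 1 without normalization, 20 and 16 with a common median, and 39 and 33 in the authors' deposited table. The median over the 4 members with a fold or bound was 0.10, against 0.24 over the 223 rat probes. The 2 members detected on both arrays lay above sham without overlap of their spots, which was also so for 63.7% of the 157 rat probes detected on both and not saturated.

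miR-487b was read with the probe used at day 2. It gave 789, 728, 645 and 651 in MI, against 374, 401, 339 and 331 in sham, so that every MI spot was brighter than every sham spot. The normalized difference was 0.59 (SE 0.09). The median of the 157 rat probes detected on both arrays was 0.24. With the arrays shifted to a common median of these probes the difference was 0.39. In the authors' deposited table miR-487b stood at 8.67 in MI and 8.66 in sham, a difference of 0.008.

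miR-299 (chr6:134545075-134545096) gave 422, 440, 451 and 431 in MI, against 300, 283, 320 and 268 in sham, again without overlap. The normalized difference was 0.37 (SE 0.06). It was 0.02 with the arrays shifted to a common median, and -0.25 in the authors' deposited table, so its direction depended on the scaling. Its probe had another ID at day 2, where no spot was above the limit on either array.

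The other 3 members detected at day 14 were near the limit. miR-541 (chr6:134578434-134578458) gave 178, 153, 131 and 127 in MI, with no spot above the limit, against 157, 317, 170 and 255 in sham, with 2 above it. Its bound was -0.31, lower in MI, and in the authors' deposited table the difference was -1.84. miR-341 (chr6:134347871-134347891), a miRNA known from rodents, gave 218, 178, 141 and 149 in MI, against 238, 366, 142 and 120 in sham, and its bound was -0.16. miR-543 (chr6:134552418-134552438) gave 394, 261, 193 and 153 in MI, with 3 spots above the limit, against 1043, 216, 138 and 167 in sham, with 1 above it. That single sham spot left the normalized MI mean, 7.90, below the sham mean, 8.21, so no fold is given although the probe was detected in MI only.

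miR-494 and miR-487b, both far above the limit at day 2, went apart at day 14. miR-494 was read by a probe of another ID, which gave 62, 86, 43 and 56 in MI and 56, 64, 56 and 77 in sham, none above the limit, while miR-487b stayed above it in every spot. Among the other members detected at day 2 only, miR-329, miR-370, miR-376b-3p and miR-434 were read by the same probe ID on both days, and miR-381, miR-382 and miR-409-5p by another. The day 14 probe of miR-409-5p was also on the day 2 arrays, named for human and mouse, and no spot of it was above the limit there on either array.

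**Figure D3:**
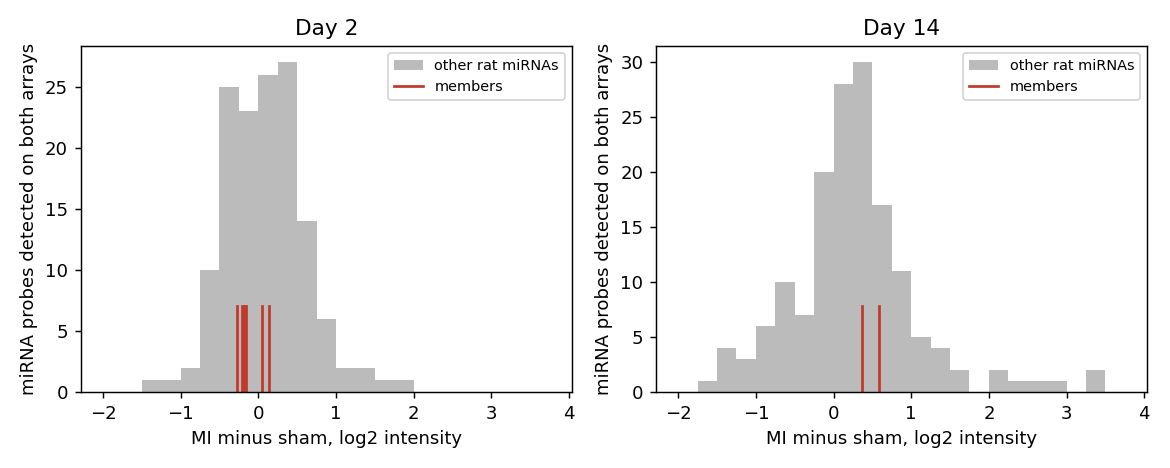
Distribution of the MI minus sham log2 difference over rat miRNA probes detected on both arrays of a day (grey bars, number of probes) with the members detected on both as red lines, day 2 left and day 14 right. The 6 members of day 2 lie between -0.28 and 0.13, and the 2 of day 14 at 0.37 and 0.59, all inside the range of the other miRNAs.

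Markers of cell types in the heart also differed between MI and sham. At day 2 all 4 leukocyte miRNAs were higher in MI (0.83 to 1.99), and the summed intensity of the list was 49551 in MI and 16841 in sham. The 3 fibroblast miRNAs lay between -0.25 and 0.28 at day 2, with sums of 9191 in MI and 9887 in sham. The 5 heart muscle miRNAs all lay above 0 at day 2, with sums of 219359 in MI and 170781 in sham, and 3 of them were saturated. At day 14, 3 of 4 leukocyte miRNAs were higher and miR-150 was lower (-1.74), with sums of 12256 in MI and 9130 in sham. The 3 fibroblast miRNAs were all higher at day 14 (2.10 to 3.43), with sums of 18187 in MI and 2392 in sham. The 5 heart muscle miRNAs were lower at day 14 (-1.42 to -0.66), with sums of 16427 in MI and 40201 in sham. All 5 were detected on all 4 arrays. Of the 3 neuronal markers, from a tissue where the region's miRNAs are abundant, miR-124 was detected on no array and miR-9 and miR-128 on both arrays of day 2 and 1 array each at day 14. The sums of the list were 1861 in MI and 2133 in sham at day 2 and 527 in MI and 549 in sham at day 14. The skeletal muscle miRNA miR-206 was lower in MI at day 2 (-0.61) and at day 14 (-0.70). The red blood cell miRNAs miR-451 and miR-144 lay at 0.18 and 0.42 at day 2 and at 0.01 and 0.21 at day 14. What part these shifts had in the members' values was not tested.

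The arrays also held probes for other miRNAs of the region, taken from a list of 58 hairpin names. At day 2, 3 of 16 further rat probes were detected on at least 1 array (miR-300-5p, miR-382* and miR-412), and at day 14, 13 of 56. None passed 2-fold on either day with the main processing. Several were the other arm of a member's hairpin, or of another hairpin. The sequences of 4 that are described next follow, with the seed in capitals.
rno-miR-433-5p: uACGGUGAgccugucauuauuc
rno-miR-1188-3p: cGAGGCUCcccaccaca
rno-miR-300-5p: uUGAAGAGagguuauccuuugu
rno-miR-134-3p: cUGUGGGCcaccuagucaccaa

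miR-433* (the 5p arm) was detected in all 4 spots of every array, while miR-433 itself was detected on none. Its probe, named for mouse alone at day 2, ranged from 6344 to 7504 in MI (median 7075), against 8718 to 14367 in sham (median 12078), a difference of -0.40 (SE 0.18). At day 14 the same probe, now named for rat too, ranged from 1021 to 1124 in MI (median 1031), against 643 to 712 in sham (median 682), a difference of 0.17 (SE 0.04). The median of rat probes detected on both day 14 arrays was 0.24, above this value. Over the alternatives run after these values were seen, the difference of miR-433* ranged from -0.75 to -0.27 at day 2 and from 0.07 to 0.59 at day 14. Unlike those of the members, these alternatives, and those of the other probes below, left out the authors' deposited table. In that table the median of rat probes detected on both day 14 arrays was -0.16.

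miR-300-5p had a small difference on both days, whose direction changed with the alternatives (-0.48 to 0.05 at day 2 and -0.33 to 0.14 at day 14). At day 2 its spots were between 2107 and 2456 in MI and between 2666 and 3295 in sham, with a difference of -0.20 (SE 0.06). At day 14 they were between 566 and 676 in MI and between 507 and 1442 in sham, with a difference of -0.21 (SE 0.11). miR-382*, from the hairpin that also gives miR-382, had spots of 579 to 959 in MI and 1241 to 1669 in sham at day 2, without overlap. Its difference was -0.57 (SE 0.18), and ranged from -1.14 without normalization to -0.37 without the fourth spot set.

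At day 14, miR-134* ranged from 642 to 716 in MI and from 323 to 366 in sham, a difference of 0.64 (SE 0.07). Over the same alternatives, without the authors' deposited table, this ranged from 0.42 to 0.92. miR-1188-3p ranged from 3764 to 5437 in MI and from 1617 to 2578 in sham, a difference of 0.62 (SE 0.24). Its difference ranged from 0.60 to 1.23 over the alternatives. It was past 2-fold without normalization (1.23) and with the spike-in shift (1.10). miR-667 ranged from 1301 to 1370 in MI and from 820 to 907 in sham, a difference of 0.24 (SE 0.05), equal to the median of the rat probes. The other rat probes detected at day 14 were miR-377*, miR-485*, miR-136, miR-668, miR-540*, miR-758*, miR-411* and miR-539*, each with a bound or difference under 2-fold or without one.

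Probes named for human or mouse alone can bind rat miRNAs of similar sequence. Of 63 such probes for the region at day 2, 16 were detected and 15 had a fold or bound, with a median of -0.11. Of these 15, 2 were past 2-fold, both lower in MI. Among the 172 rat probes of that day 1.16% were lower by 2-fold. The share over all probes named for human or mouse alone was not computed. hsa-miR-493* ranged from 572 to 1166 in MI and from 2320 to 3147 in sham, a difference of -1.34 (SE 0.22). hsa-miR-379* ranged from 236 to 410 in MI and from 827 to 876 in sham, a difference of -1.05 (SE 0.14), which was -0.92 with cyclic loess and -0.998 without the fourth spot set. The rat probe for that arm, rno-miR-379*, had no spot above the limit on any array, with 84 to 136 in MI and 180 to 220 in sham at day 2. The probe of hsa-miR-493* was also named for rat at day 14 and was not detected then. The rat probes for miR-493 and miR-379, which read the other arm, were detected on no array. At day 14, 7 of 64 such probes were detected and none passed 2-fold. One probe of day 2 named for mouse, mmu-miR-665, carried the ID of the day 14 probe of rno-miR-665. It ranged from 488 to 746 in MI and from 528 to 628 in sham at day 2, a difference of 0.52 (SE 0.31) that ranged from -0.29 to 2.50 over the alternatives, and no spot of it was above the limit at day 14.

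The size of the members' differences varied with the processing. Over the alternatives that gave a value, the difference of miR-494 at day 2 stayed below 0, from -0.61 to -0.03, and that of miR-487b at day 14 stayed above 0, from 0.008 to 0.86. At day 2 miR-487b ranged from -0.58 to 0.003, miR-370 from -0.81 to 0.22 and miR-329 from -0.61 to 1.64. miR-299 at day 14 ranged from -0.25 to 0.61.

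**Figure D4:**
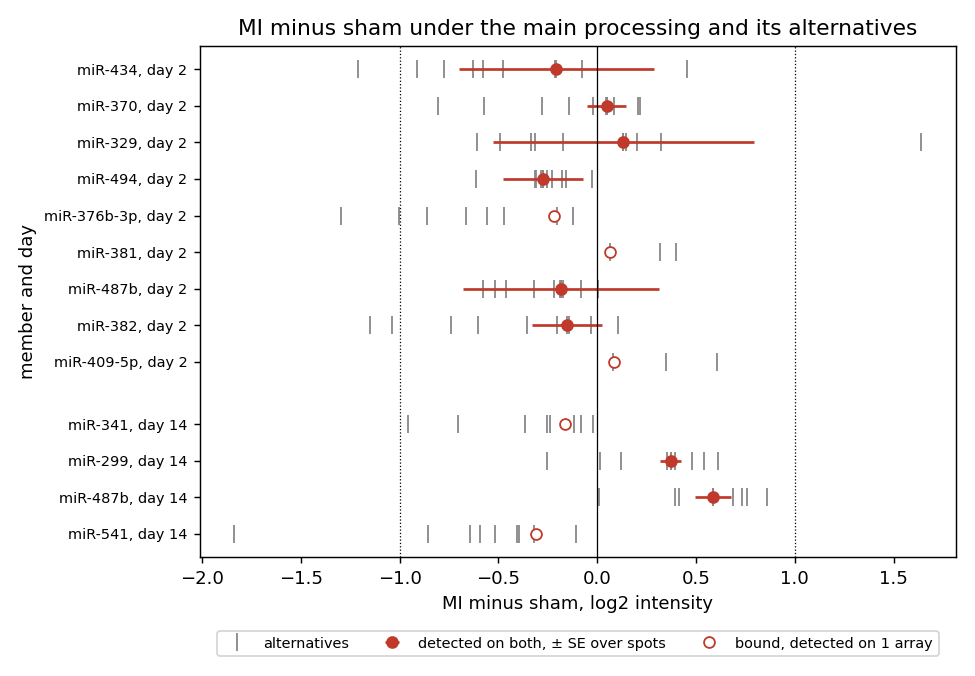
MI minus sham log2 difference of each member with a fold or bound, day 2 above day 14, with the main value as a circle (filled with its SE over spots where detected on both arrays, open where it is a bound) and each alternative processing as a grey tick. Dotted lines mark 2-fold; no circle is past them, and ticks of miR-434, miR-376b-3p, miR-382 and miR-329 at day 2 and of miR-541 at day 14 are.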

How the data were processed

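Each array read RNA pooled from 3 rats, per the labels, and groups follow the titles, since all samples carry 1 treatment text. The authors deposited scanner files with a foreground and a background intensity per spot. Per the file headers, Mapix 4.5.0 read them with pixels of 5 µm, with names from miRBase 12.0 at day 2 and 16.0 at day 14. The image of the day 2 sham array is named for mouse in its header, although its label names rat. The authors also deposited a table of log2 values. Its background correction, scale and centring are not given in the sources used here, and it served as an alternative.

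Foreground medians were background-corrected with normexp (offset 50, limma 3.58.1, R 4.3.3), quantile normalization within a day used non-control spots, and log2 values were averaged over 4 spots. Where 1 array of a day detected a probe, its mean there was set against the other array's mean or the lowest mean of a rat probe detected on that array, whichever was higher. This gives a bound, with no fold where this is under 1-fold. Probes with at least 50% of spots at 65535 counted as saturated. The calculation was tested on simulated arrays that shared 1 background, which does not cover the unequal backgrounds of the day 2 arrays or probes near the limit. Signal over background limits the precision, and 1 array a group allows no test. No correction was made for near-identical miRNAs.

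Members detected on at least 1 array of a day were named with their values and the rest once. The members, lists and alternatives were chosen with earlier results of these data known. Alternatives covered normalization, background correction, spot summary, the fourth day 2 spot set, detection limit and the authors' table. For the other probes of the region they left out the detection limit and the authors' table.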

Additional observations from a re-analysis of the deposited data

Results flagged for a closer look

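miR-487b was above sham at day 14, by a mean difference of 0.59 on the log2 scale, with all 4 MI spots above all sham spots. It was below sham at day 2, by a difference of -0.18 with overlapping spots. The difference between the days was not tested, since each group had 1 array and the days differ in array design and RNA amount.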

How the results depend on the processing

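No paired analysis was possible because each group had 1 array. The count of detected members at day 2 was 8 or 9 under the alternatives run. At day 14 it was 5, and 7 with the mean of pixels as foreground, 3 with a limit of 3 background standard deviations and 2 where all spots had to pass. The median difference of detected members at day 2, -0.15, was -0.61 without normalization between arrays and 0.24 with the local background subtracted. At day 14 the median, 0.10, was -0.34 with a common median of rat probes, 0.37 with 3 standard deviations, 0.48 with all spots and -0.61 in the authors' deposited table. The count of members past 2-fold, 0 on both days, was 3 at day 2 without normalization (miR-382, miR-376b-3p and miR-434, all lower), 1 with a shift by spike-in controls (miR-376b-3p, lower), 1 with the background subtracted (miR-329, higher) and 1 in the authors' deposited table (miR-382, lower). At day 14 it was 1 in the authors' deposited table (miR-541, lower). Other alternatives left these summaries within the spread of the spots, but the day 2 median still varied among them. It was -0.49 with the median of the spots, -0.48 in the authors' deposited table and -0.32 with the spike-in shift. Without spot set 4 it was -0.34. Each of these was over 7 members. It was -0.17 to -0.19 with 3 standard deviations, a common median or the mean of pixels. It was -0.07 where all spots had to pass and 0.003 with cyclic loess. The cause of the shifts was not tested. Of 115 values of single members under an alternative, 70 moved by no more than their SE over spots and 45 moved further. The 115 include values under the stricter detection limits, which reuse the main normalized values, so these had little room to move. The arrays of a day differed by a shift (MI minus sham) of -0.43 at day 2 and 0.46 at day 14 over rat probes detected on both. Detection compares each spot with its own background, so scaling did not enter it, and signal over background limits it.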
